A study of Drosophila melanogaster with 2 samples.

Results

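Peaks of GFP-tagged Sox102F in the introns of genes shorter than 50 kb made up 2321 of the 7488 peaks in the optimal list, the highest-ranked peaks that the authors kept for both replicates together (31.0%, 95% Wilson interval 29.96 to 32.1%). A peak was counted when its summit lay more than 500 bp from every transcription start site (TSS) of a protein-coding gene, inside a protein-coding gene and in no annotated exon, and when the longest protein-coding gene over it, here called the host gene, was shorter than 50 kb. Within the optimal list the choice used position alone, so sequence played no part in it and no further filter on low values was set. The list itself holds only the highest pooled peaks and was derived from both replicates. Signal and replicates therefore limited which peaks could be members. The study mapped the binding of Sox102F by chromatin immunoprecipitation and sequencing (ChIP-seq) in whole Drosophila melanogaster embryos of 12 to 14 h. All embryos came from a single line, which stably carries Sox102F fused at its C-terminal end to GFP, and the antibody was directed against GFP. Biological replicates 2 and 3 formed the only group, with no embryo lacking the tag among the samples analysed, so the comparisons here are between classes of sequence and between replicates. The embryos were taken whole, so a peak cannot be assigned to a tissue. The lists hold no read counts, so depth is unknown and all intervals cover counting error only.

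Sox102F belongs to the SoxD group of transcription factors, which bind the minor groove of DNA through an HMG box and bend it. HMG boxes of Sox proteins prefer short A- and T-rich words around ACAAT. Introns of developmental genes in flies often hold enhancers, and the first intron, downstream of the promoter, tends to be the longest.

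The base sequence at the summits is shown first, because most of these peaks had a core rich in A and T, which the rule did not use. The sequences below reach 50 bases to either side of the summits of high members and are read 5′ to 3′ on the plus strand of RefSeq's Release 6 (dm6) assembly. Capitals mark ACAAT and TAACA, the same letters in reverse order, on either strand. They lie at chr2L:6612663-6612763, chrX:4910312-4910412, chr3L:14759461-14759561, chr3R:14283823-14283923 and chr3R:8811644-8811744, in the order printed.
CG11050: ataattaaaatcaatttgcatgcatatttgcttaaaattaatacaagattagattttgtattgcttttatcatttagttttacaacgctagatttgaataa
CG32772: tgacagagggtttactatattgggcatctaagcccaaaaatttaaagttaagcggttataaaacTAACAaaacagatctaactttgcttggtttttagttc
Trl: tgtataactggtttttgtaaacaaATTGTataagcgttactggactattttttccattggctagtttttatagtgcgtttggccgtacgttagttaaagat
trx: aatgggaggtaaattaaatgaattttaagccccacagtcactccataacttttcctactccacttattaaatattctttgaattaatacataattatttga
CG9837: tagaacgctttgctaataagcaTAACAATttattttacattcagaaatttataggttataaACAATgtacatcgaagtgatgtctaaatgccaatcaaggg
Their A and T share was 79.2% at CG11050, 67.3% at CG32772, 67.3% at Trl, 72.3% at trx and 70.3% at CG9837. CG9837 held 2 copies of ACAAT, 1 of them overlapping TAACA, and CG11050 and trx held neither word.

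For contrast, the window of the same width centred 300 bp to the right of the trx summit, at chr3R:14284123-14284223 in the same intron, read as follows.
trx flank: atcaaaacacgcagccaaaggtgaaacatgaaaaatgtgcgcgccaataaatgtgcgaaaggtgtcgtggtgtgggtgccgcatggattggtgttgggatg
A and T made up 50.5% of it. The contrast between summit and right flank varied among high members. It was larger at CG11050, with 36.6% in the flank, but that flank lay outside the 140-bp intron of the summit. It was small at CG9837, with 68.3% in a flank in the same intron. At Raf, not printed here, it was reversed, with 59.4% at the summit and 70.3% in the flank. The member of dyl, among the weakest, was ranked 7482 of 7488, at chr3L:4304742-4304842.
dyl: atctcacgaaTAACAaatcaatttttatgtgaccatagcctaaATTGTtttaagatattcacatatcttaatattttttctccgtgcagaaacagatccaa
This window was 71.3% A and T and held both words. The window of another weak member, in aop and ranked 7472, was 65.3% A and T and held neither.

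Over all 2321 members, A and T made up 69.3% ± 7.38 (SD over members) of the bases within 50 bp of the summit, against 55.5% ± 9.21 and 55.7% ± 9.00 in the windows 300 bp to the left and to the right. Windows of the same width tiled over all eligible intron sequence of shorter genes averaged 60.1% ± 9.09 (n = 252441), so the summits lay above and their flanks below the level of such introns. Some flanks reached exons or promoters. The flanks centred on eligible intron sequence averaged 55.8% ± 9.00 on the left (n = 2048) and 56.2% ± 8.65 on the right (n = 2061). In the profile in 20 bp steps the share was 69.8% just left of the summit and 56.4% at 170 bp to the left. The 25% of members with the highest signal averaged 71.1% ± 6.66 and the 25% with the lowest 67.6% ± 7.91. Peaks at the same kind of position that were in the pooled list but outside the optimal list averaged 61.3% ± 9.29 (n = 6442), close to plain intron sequence. The high A and T share was not particular to these introns: it was 69.7% in introns of longer genes, 69.3% at promoters and 69.7% outside genes.

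Of 13 words counted within 50 bp of the summit on either strand, 7 stood in more members than flanks beyond the counting intervals, namely the Sox core and its extended and reversed forms, the homeodomain and GATA words, a run of A and an alternation of A and T. ACAAT stood in 34.1% of members (32.2 to 36.0%), against 24.1% of flanks and 27.4% of all intron windows. TAACA stood in 29.3% of members (27.5 to 31.2%), against 15.8% of flanks and 19.4% of windows. When intron windows were weighted to the same A and T shares as the members, in classes of 2 percentage points, 33.6% held ACAAT and 27.3% held TAACA. Members therefore held ACAAT 1.02 times and TAACA 1.07 times as often as windows of like composition. The extended word AACAAT was in 15.4% of members, against 15.7% of such weighted windows. ACAAAG, a word of Sox and TCF factors, differed little from the flanks, with 8.44% of members (7.38 to 9.65%), 8.25% of flanks and 7.61% of weighted windows. Base composition and these words moved together, and the part of each in binding was not tested.

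Other words gave the background of general intronic elements. TAATTA, the core of many homeodomain sites, was in 11.5% of members, 5.51% of flanks and 13.3% of weighted windows. The GATA word AGATAA was in 9.87% of members, 5.73% of flanks and 9.34% of weighted windows. GAGAG, bound by the GAGA factor encoded by Trl, was in 7.02% of members, 16.9% of flanks and 6.93% of weighted windows. The E-box CAGCTG stood in 2.50% of members (1.94 to 3.22%), 5.11% of flanks and 1.78% of weighted windows. The weighted share lay below the members' interval for CAGCTG and TAACA, above it for TAATTA and for a run of 6 A bases (31.6%, against 26.4 to 30.1%), and within it for the other 9 words. The 8-base word TATCGATA, the DNA replication-related element typical of housekeeping promoters, was in 1 member (0.043%), against 1.56% of promoter peaks. Here the members differed from the promoter peaks beyond the counting intervals, which were 0.00761 to 0.244% and 1.11 to 2.19%.

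Six-base words were ranked on the members of 2L, 3L and 4 and then measured on the 1475 members of 2R, 3R and X, which had not served for the choice. AATATT was in 21.2% of these, against 5.93% of their flanks and 9.33% of intron windows. TTATAA was in 15.1%, against 3.49% of flanks and 5.68% of windows, and TCTTAA in 12.3%, against 3.56% and 6.18%. Among the words ranked lowest, GCCAGC was in 1.90% of these members, against 7.90% of flanks and 6.62% of windows. The words given here were thus frequent or rare on both sets of arms. Ratios to windows moved between the choosing and the second set, as for TTATAA (2.07 and 2.66), AGTATG (2.01 and 1.38) and CTTTCC (0.378 and 0.762). These windows were not weighted by A and T share, so the words were not separated from base composition.

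The position rule opened 25.5 Mb of sequence, called eligible here, and the 2321 members filled it at 91.0 peaks per Mb (exact Poisson interval 87.3 to 94.8). Introns of genes of 50 kb or more held 1242 peaks at 54.0 per Mb (51.0 to 57.1), promoters 134 per Mb, sequence outside protein-coding genes 46.6 and exons 7.58. Peak density in introns of shorter genes was therefore 1.69 times that in introns of longer genes, with intervals that did not meet. The ratio ranged from 1.55 to 2.57 with gene length limits of 30 and 100 kb, and was 1.79 and 1.66 when the highest peaks of replicate 3 or of replicate 2 alone were used. The share of members among all peaks changed little below the first 500 ranks of the pooled list. It was 25% in these (21.4 to 29.0%), 29.4% in the next 500, 30% in ranks 1001 to 2000, 32.2% in ranks 2001 to 4000 and 31.7% in ranks 4001 to 7488. Among the weaker pooled peaks it was 30% in ranks 7489 to 15000 and 27.9% in the last 15000 ranks. Promoters instead made up 54.2% of the first 500 ranks and 11.5% of the last 15000 ranks.

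First introns held most members. The rank of an intron was counted from the 5′ end in the longest transcript of the host gene that spliced it out. First introns held 1273 members (54.8%, 52.8 to 56.9%) but 39.7% of eligible bases, second introns 685, introns of rank 3 187, of rank 4 73 and of higher ranks 103. Density was 126 per Mb in first introns (119 to 133), 97.4 in second introns (90.2 to 105), 64.7 in rank 3 (55.8 to 74.7), 45.5 in rank 4 (35.7 to 57.2) and 26.7 in rank 5 or later (21.8 to 32.4). It fell at every step, with intervals that met only between ranks 3 and 4. Introns of longer genes gave 69.4 per Mb in first and 77.5 in second introns, so the order of the first pair was not seen there. When the lowest rank over all transcripts was used instead, 71.7% of members lay in first introns, against 51.6% of eligible bases.

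**Figure D1:**
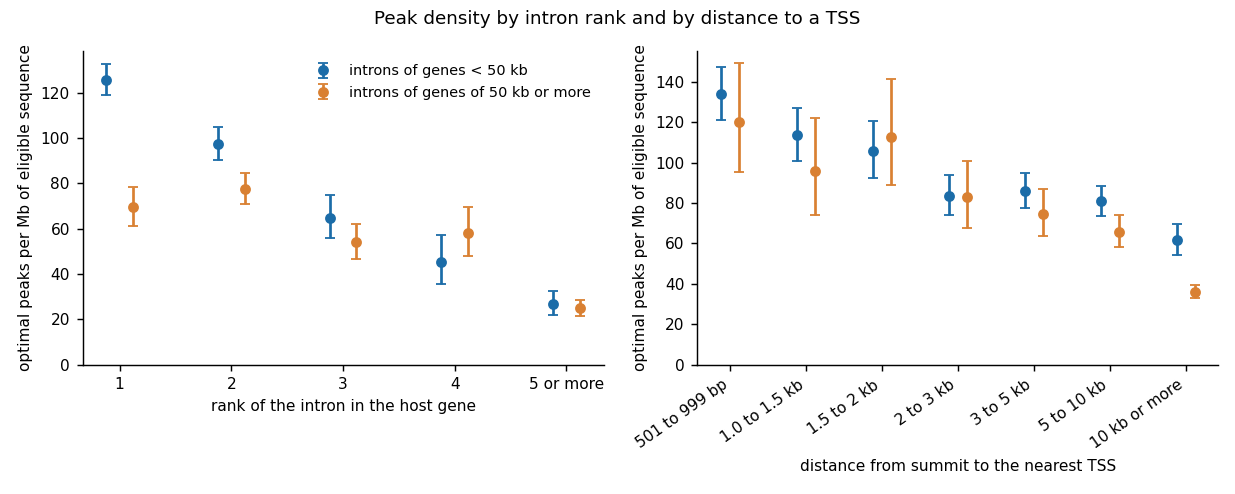
Optimal peaks per Mb of eligible intron sequence (vertical axes) by intron rank (left) and by distance from the summit to the nearest TSS (right), for introns of genes shorter than 50 kb and of genes of 50 kb or more. Points are densities and bars exact 95% Poisson intervals. In shorter genes density stands at 126 per Mb in first introns and 26.7 in rank 5 or later.

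The order by rank was also seen in point values within classes of intron length and, for first against later introns, of distance to a TSS. In each of the length classes given, the intervals of first and second introns met. Among introns of 5 to 10 kb, first introns held 139 peaks per Mb (124 to 155), second introns 111 (95.1 to 130), rank 3 84.7, rank 4 68.5 and later ranks 52.7. Among introns of 1 to 2 kb these densities were 140.5, 99.1, 57.0, 45.2 and 15.4, and among those of 2 to 5 kb 125, 102, 73.3, 39.1 and 28.1. Introns of 10 to 20 kb had 130.2 in rank 1, 110 in rank 2, 71.3 in rank 3 and 58.4 in rank 4, but 90.2 in later ranks (62.1 to 127). Under 1 kb from a TSS, first introns held 156 per Mb (138 to 175) and later introns 105 (88.9 to 124). At 10 kb or more from any TSS, first introns still held 100.3 (81.0 to 123) and later introns 50.2 (42.7 to 58.7). In each of the 7 distance classes the first introns had the higher density.

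Density declined with distance from a TSS in shorter genes. It was 134 per Mb under 1 kb (121 to 147), 113 at 1.0 to 1.5 kb, 106 at 1.5 to 2 kb, 83.5 at 2 to 3 kb, 85.8 at 3 to 5 kb, 80.9 at 5 to 10 kb and 61.7 at 10 kb or more (54.2 to 69.8). In introns of longer genes the same classes ran from 120 to 36.0 per Mb, and only beyond 10 kb did the intervals of the 2 kinds of gene not meet. Eligible bases of shorter genes lay closer to a TSS, with 15.9% of them 10 kb or more away against 58.5% of those of longer genes. The median member lay 2745 bp from the nearest TSS (quartiles 1253 and 6008), against 3565 bp for eligible bases. The nearest TSS belonged to the host gene for 1887 members (81.3%) and to another gene for the rest. The farthest member lay 27854 bp from any TSS, in the second intron of bab2, a transcription factor gene of leg and ovary development.

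Within the host gene the members leaned to the 5′ side. The median summit lay 32.5% of the way from the 5′ to the 3′ end (quartiles 17.0 and 52.6%), against 43.3% for eligible bases. Density was 143 per Mb in the first 10% of the gene (127 to 160), 130.5 in the next, 88.7 at 40 to 50%, 58.8 at 70 to 80%, 29.4 at 80 to 90% and 10.6 in the last 10% (4.26 to 21.8), where 7 members lay. A total of 157 members lay in the last intron of their transcript, including 89 for which it was the only intron.

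Density was low close to annotated exons, counting those of any transcript or gene and not only the ends of the intron. It was 11.8 per Mb within 50 bp of an annotated exon (8.05 to 16.8), 35.7 at 50 to 100 bp, 69.7 at 100 to 200 bp, 90.2 at 200 to 500 bp and 111 at 500 to 1000 bp, and stayed at 114.8 and 108 beyond. In introns of 2 kb or more, cut in 5 equal parts from the 5′ splice site, the densities were 117, 127, 108, 101.1 and 71.8 per Mb, so the last part, next to the 3′ splice site, was the lowest. Introns under 1 kb held 82 members at 22.7 per Mb, introns of 1 to 2 kb 75.6 per Mb, of 2 to 5 kb 87.7 and of 5 to 10 kb 113. Closeness to an exon was not separated from short intron length. Taken over members, so that an intron with several counts several times, the median intron length was 9497 bp.

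**Figure D2:**
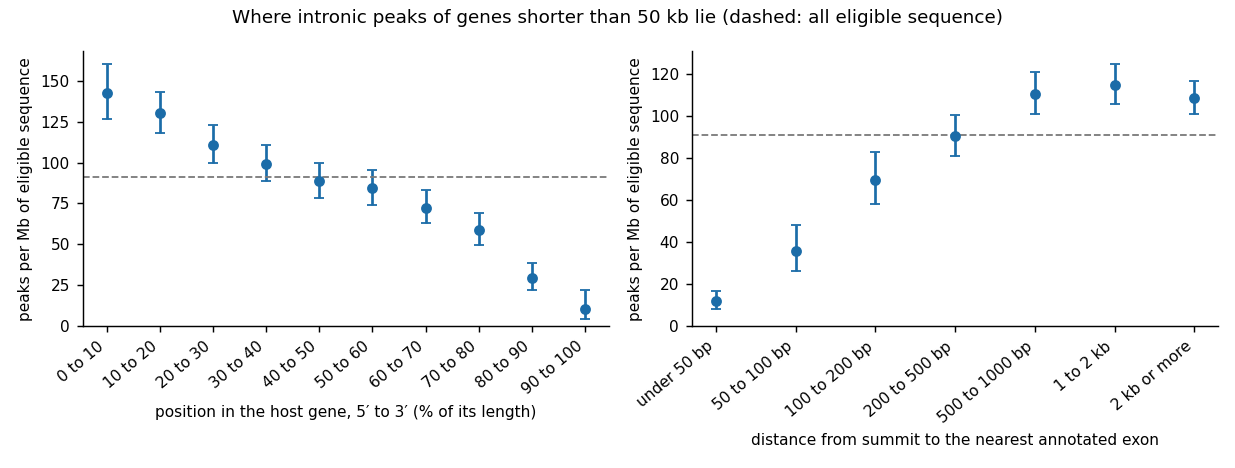
Members per Mb of eligible sequence by position along the host gene, 5′ to 3′ (left), and by distance from the summit to the nearest annotated exon (right). Bars are exact 95% Poisson intervals and the dashed line is the density over all eligible sequence, 91.0 per Mb. Density runs from 143 in the first 10% of the gene to 10.6 in the last 10%.

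By host gene length, density was 51.0 per Mb in genes under 5 kb (41.3 to 62.5), 98.5 at 5 to 10 kb, 102 at 10 to 20 kb, 104 at 20 to 30 kb, 83.7 at 30 to 40 kb and 79.7 at 40 to 50 kb. Across the limit of 50 kb there was no step: genes of 50 to 75 kb had 78.1 per Mb, of 75 to 100 kb 71.4, of 100 to 150 kb 48.6 and of 150 kb or more 19.8. The longest hosts inside the limit were NetA (49.9 kb), a netrin that guides axons and muscles, with a highest signal value of 635, and Dyrk2 (49.6 kb), a protein kinase, with 172. The shortest genes outside it with such a peak were ab (50.4 kb), a zinc finger gene of dendrite shape, with 339, and pHCl-1 (50.5 kb), a chloride channel, with 99.9. At the TSS limit, the members closest to a start lay in Pxt, CG5445 and NaCP60E, with signal values of 100.99, 371 and 345. Peaks just inside the promoter window in CG46385, Mtp and Chpf had 167, 388 and 175. By chromosome arm, density was 118 per Mb on X (108 to 129), 100.05 on 3L, 85.7 on 3R, 84.2 on 2R and 77.5 on 2L, and 1 member lay on chromosome 4, in apolpp.

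Signal values are the authors' score of each peak, on a scale that differs between lists. Members had a median signal value of 201 in the optimal list (quartiles 135 and 341, range 97.2 to 4293), against 179 in introns of longer genes, 178 outside genes and 266 at promoters. In the peaks of each replicate that held the summit, members had a median of 80.8 in replicate 2 and 124 in replicate 3, against 71.3 and 111 in introns of longer genes. When the highest 7488 peaks of each replicate were classed anew, the median in introns of shorter genes was 1.13 times that in introns of longer genes in replicate 2 and 1.11 times in replicate 3, against 1.13 in the optimal list. By rank, median signal was 201 in first introns, 206 in second introns, 182 in rank 3, 175 in rank 4 and 216 in rank 5 or later, with no steady order. It was 227 under 1 kb from a TSS and 178 at 10 kb or more.

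Both replicates held a peak at 2209 of the 2321 summits (95.2%, 94.2 to 96.0%). Replicate 2 alone held 26, replicate 3 alone 84, and neither 2. The lists share a control file, and the optimal list was derived from them, so this overlap is no independent estimate. From the highest to the lowest 25% by signal, the share was 97.2, 94.3, 95.9 and 93.3%, which is not a steady fall. In introns of longer genes it was 98.0% (97.0 to 98.6%), above the interval of the members, and at promoters 89.6%. The highest member without a replicate 2 peak was in the first intron of Pak3, which encodes a kinase of the actin cytoskeleton, with 1291 in the optimal list and 929 in replicate 3.

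Across the 2209 summits in both, Pearson's r between replicates was 0.898 on log2 signal and Spearman's rank correlation was 0.861, as a description over peaks that share the control file and the 2 libraries. The value of replicate 3 was 1.56 times that of replicate 2 at the median (quartiles 1.31 and 1.83), for lists on separate scales. It was more than 4 times as high at 23 summits. Chosen after the values were seen, the largest ratios were at Cdc7, with 14.7 in replicate 2 and 315 in replicate 3, tna with 25.6 and 344, and Drat with 37.2 and 444. Their optimal values were 107, 168 and 117, in that order, below those of replicate 3. The members' median was 201 in the optimal list and 124 in replicate 3. A replicate value is that of the highest replicate peak holding the summit, and the summit of that peak was not compared. In the other direction scramb2 had 112 in replicate 2 and 22.3 in replicate 3. The cause of these gaps was not tested.

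**Figure D3:**
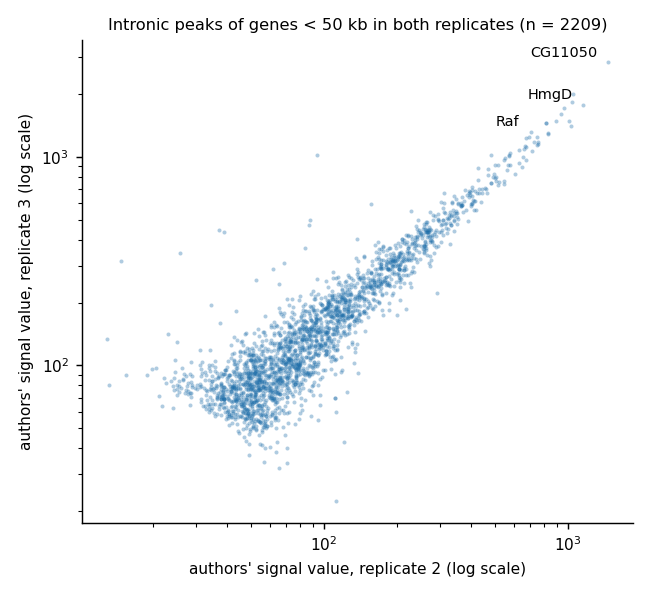
The authors' signal value of the replicate 2 peak (horizontal, log scale) and the replicate 3 peak (vertical, log scale) that hold each member's summit, for the 2209 members with both. Each point is a member, and the named ones are among the 20 with the highest optimal signal. Most points form a band that tightens at high signal, with a few far above it.

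The 20 highest members lay in 20 different genes of 5.90 to 48.4 kb, 15 in first introns and 5 in second introns, and all 20 in peaks of both replicates. The highest, with 4293 in the optimal list, 1464 in replicate 2 and 2842 in replicate 3, lay on 2L from 6612445 to 6612921 in CG11050, a gene of 6.11 kb with no role given here. Its summit was in the second intron, only 140 bp long, 68 bp from an exon and 1026 bp from the nearest TSS, so the interval covers exons as well. The next, in the second intron of CG32772 on X (4910004 to 4910616), had 3056 in the optimal list, 1050.0 in replicate 2 and 1997 in replicate 3. Lk6, which encodes a kinase that phosphorylates the cap-binding factor eIF4E, had 2856 in the optimal list, 1035 in replicate 2 and 1824 in replicate 3, in its first intron on 3R (11760850 to 11761279).

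The third highest lay in HmgD, which encodes an abundant HMG-box protein of chromatin, with 2928 in the optimal list, 1153 in replicate 2 and 1782 in replicate 3. It lay on 2R (21703111 to 21703701) in the first intron, inside HmgZ as well, and 577 bp from the nearest TSS, which was not one of HmgD. Gug, the Atrophin corepressor, had 2476, 1007 and 1480 in the optimal list, replicate 2 and replicate 3. Trl, the GAGA factor, had 2413, 1029 and 1401 in the same order of lists, in the second intron. The histone methyltransferase gene trx had 2374, 893 and 1481, in the first intron of 6667 bp. Hr3, a nuclear receptor of the ecdysone response, had 2669, 962 and 1723. This summit lay near the middle of the gene, in a first intron of 26890 bp and 7884 bp from any TSS, in a stretch that 3 protein-coding genes share.

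Raf, the MAP kinase kinase kinase of receptor tyrosine kinase pathways, had 2022 in the optimal list, 703 in replicate 2 and 1322 in replicate 3. Dif, an NF-kB factor of the immune response, had 2112, 831 and 1298 in the same order. NFAT, a transcription factor gene of 39.8 kb, had 1917, 755 and 1175. LPCAT, an acyltransferase of phospholipid remodelling, had 1890, 671 and 1226, and Hyls1, a centriole protein gene that another gene overlaps there, had 1947, 756 and 1153. The others of the 20 were CG12769 (2529), CG9663 (2300), CG31635 (2111), CG9837 (1980), CG3726 (1936), CG17834 (1888) and Reph (1877), all in first introns. Of the 20 hosts, 10 also had a peak at a promoter.

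The members fell in 1103 host genes. That is 13.6% of the 8118 protein-coding genes under 50 kb with eligible sequence (12.9 to 14.3%), and this share depended on length: 1.63% of genes under 5 kb, 17.1% of 5 to 10 kb, 39.4% of 10 to 20 kb and 62.8% of 20 to 50 kb. A single member was found in 606 hosts, 2 in 208, 3 in 114, 4 in 63 and 5 or more in 112. Hosts with 2 or more held 1715 members (73.9%). Neighbouring members of a host lay a median of 2348 bp apart (quartiles 1047 and 4856), and 998 of the 1218 neighbouring pairs (81.9%) shared an intron. Within the 497 hosts with several, the highest signal was a median of 2.63 times the lowest. The shortest hosts were CG43245 (1.48 kb, signal 295), pinta (1.61 kb, signal 155) and Tsp42Er (1.72 kb, signal 134).

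Raf and mew held the most members, 12 each. In Raf all 12 lay in the 43637-bp second intron, 9 of them in the first 25% of the gene, with optimal signal values from 100.9 to 2022 (median 368). In mew, which encodes an integrin alpha chain, 5 lay in the first intron, 6 in the second and 1 in the third, with values from 114 to 488 (median 240.0). The gene siz, an exchange factor for Arf GTPases, held 11, all in its 33412-bp first intron and with values from 109 to 681. CHES-1-like, a forkhead gene of 27.0 kb, held 10 in its first intron at 6.64 per 10 kb of eligible sequence, the densest of the 8, with values from 115.4 to 1579.

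The other hosts of the 8 had 9 or 10 members. RhoGAP19D held 10 (146 to 506), CG42663 held 10 (108 to 379), and both Mnt and tou held 9. Mnt, a bHLH repressor that opposes Myc, had values from 121 to 702, and tou, a chromatin remodelling gene, from 145 to 534, all in its 23403-bp first intron. A promoter peak accompanied them in CHES-1-like, RhoGAP19D and Mnt and not in the other 5.

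**Figure D4:**
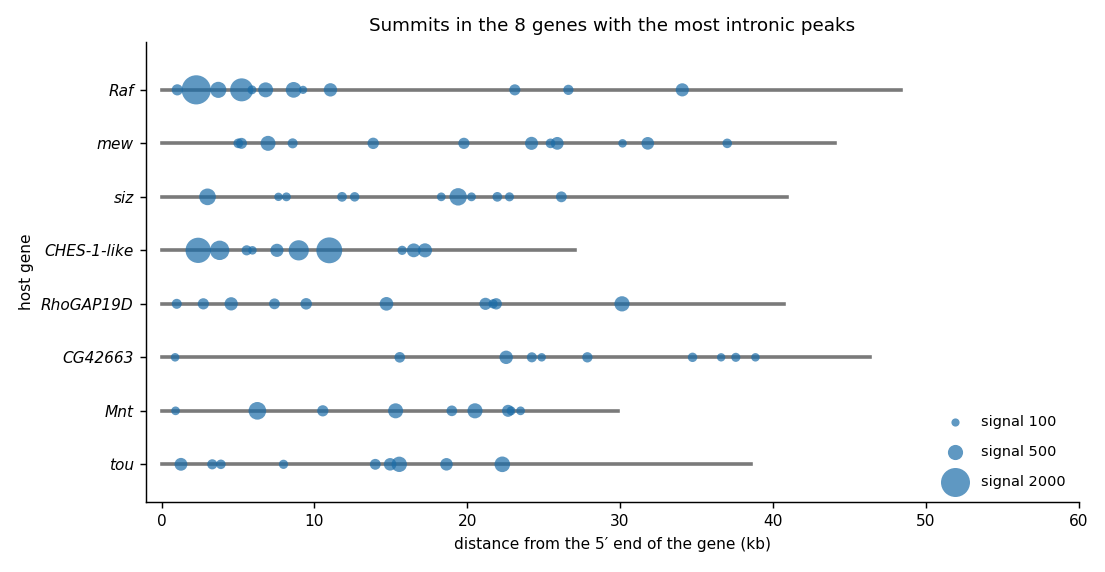
Summits of the members in the 8 host genes that held the most, by distance from the 5′ end of the gene in kb (horizontal). Grey lines are the genes, and the area of a point grows with the authors' optimal signal value. The points of Raf crowd in its 5′ part, while those of CG42663 spread over the gene with values of 108 to 379.

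Hosts had promoter peaks more often than other genes. A summit within 500 bp of a TSS was found in 434 of the 1103 hosts (39.3%, 36.5 to 42.3%), against 1207 of the 7015 eligible genes with no member (17.2%, 16.3 to 18.1%). The gap was present in each length class. It was 31.0% of hosts (22.1 to 41.5%) against 16.6% of other genes under 5 kb, 35.2% against 19.4% at 5 to 10 kb, 43.3% against 18.5% at 10 to 20 kb, and 40% (35.5 to 44.7%) against 17.1% (12.9 to 22.2%) at 20 to 50 kb. These intervals did not meet in any class.

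Genes of 17 lists were then counted, each beside the share of all eligible genes of the same lengths that were hosts. In no list did that share fall outside the list's 95% Wilson interval, so none was separated from genes of like length at these counts. Dpp and activin signalling came first, with 8 of 17 eligible genes (47.1%, 26.2 to 69.0%) against 27.7% for genes of the same lengths. The ligand dpp had 951 in the optimal list, 368 in replicate 2 and 588 in replicate 3, in its first intron. Among receptors, wit had 851 and put 271 in the optimal list. The Smad Mad had 1326, 499 and 825 in the optimal list, replicate 2 and replicate 3, the inhibitory Smad Dad had 1262, 518 and 737, and Smox, the Smad of activin signalling, 112. The extracellular modulators sog (5 members, up to 553) and cv-2 (4 members, up to 400.2) completed the list.

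Of the EGFR, FGF, JAK-STAT and insulin genes, 14 of 34 were hosts (41.2%, against 29.6%), with 64 members. Among ligands were vn (7 members, up to 431), a neuregulin for Egfr, and bnl (5, up to 506), an FGF of tracheal branching. Receptors were InR (7, up to 633) and Egfr (5, up to 294), and S, which encodes the chaperone of the EGFR ligand spitz, had 6 with up to 1288. The adaptor drk had 1 of 1036 and the nuclear repressor aop 6 of up to 622. Wnt and Hedgehog signalling had 8 of 26 (30.8%, against 28.9%), led by the Wnt antagonist nkd (715), the Hedgehog receptor ptc (441) and the Wnt co-receptor arr (410.2). The ligand Wnt4 held 7 members of up to 372 and wg 1 of 109. Notch and Hippo signalling had 7 of 20 (35%, against 27.7%), among them the ubiquitin ligase neur (987), the receptor N (813), the Hippo regulators ex (655) and kibra (7 members, up to 503) and the kinase wts (499).

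Among transcription factors, bHLH and bZIP genes had 14 hosts of 31 (45.2%, against 32.8%). They included gce, a juvenile hormone receptor (1431), crp (7 members, up to 1297), sim, the midline regulator (1090), Myc (614) and the muscle factor nau (507). Homeobox genes had 15 of 54 (27.8%, against 35.3%), with a median signal value of 135 over 22 members, against 201 over all members. The highest were zfh1 (723), Abd-B (466) and Lim1 (396). Zinc finger and GATA genes had 9 of 33 (27.3%, against 31.9%), with Trl above, ken (1053) and bowl (738). Nuclear receptors and ecdysone response genes had 5 of 20 (25%, against 31.4%), with Hr3 above, ImpL2 (1536), which encodes a secreted insulin-binding protein, and Eip78C (324). Sox and other HMG-box genes had 3 of 12 (25%, against 31.6%), namely HmgD, Dsp1 (386) and HmgZ (243), and none of these 3 is a Sox gene.

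Chromatin regulators had 6 hosts of 49 (12.2%, 5.73 to 24.2%, against 22.1%): trx (7 members, up to 2374), osa (1630), Mi-2 (1045), ph-p (651), Psc (634) and CtBP (104). RNA-binding and splicing genes had 7 of 32 (21.9%, against 22.6%), led by the translational repressor brat (1591), ps (818) and the sex determination gene Sxl (616). The neuronal gene fne held 5 members of up to 229. Cell cycle and cell death genes had 10 of 40 (25%, against 17.1%), with the caspase inhibitor Diap1 (1099), CycE (781) and egr, a TNF ligand (548).

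The remaining lists lay on both sides of the share for genes of the same lengths. Adhesion, junction and matrix genes had 15 of 37 (40.5%, against 33.9%), with rhea, the talin gene (671), Mcr (642) and mew (488). Actin, myosin and cell shape genes had 14 of 43 (32.6%, against 30.5%), led by sn, a fascin (696), ena (632) and Fhos (506). Ion channel, transporter and synaptic genes had 12 of 49 (24.5%, against 34.9%), with the potassium channel genes Irk1 (1131) and KCNQ (1016) and the synapsin gene Syn (613). Carbon and lipid metabolism genes had 12 of 50 (24%, against 17.1%), with the lipase bmm (1158), Zw, glucose-6-phosphate dehydrogenase (984), and the citrate synthase kdn (624). Trafficking genes, mostly short, had 3 of 45 (6.67%, against 8.99%), namely Rab11 (753), Rab14 (591) and Sar1 (385).

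**Figure D5:**
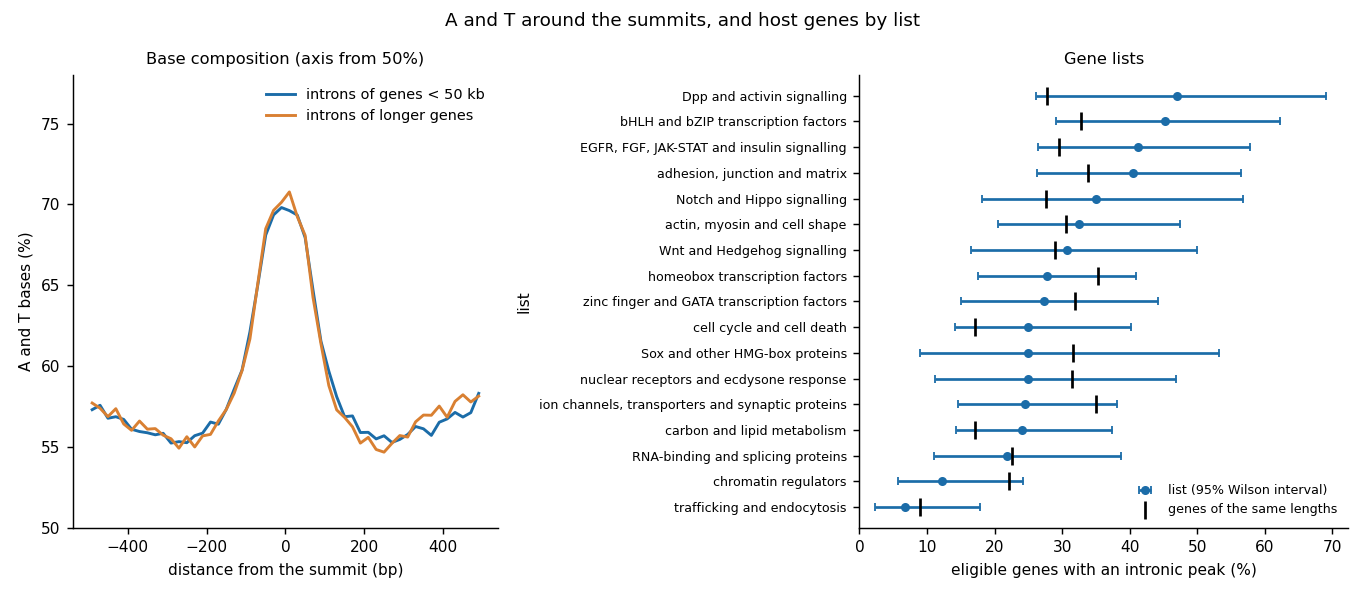
Left, share of A and T bases in 20 bp steps by distance from the summit, averaged over members and over peaks in introns of longer genes (axis from 50%). Right, percent of the eligible genes of each list with a member (points, bars 95% Wilson intervals) and the share among eligible genes of the same lengths (ticks). The left curves rise to about 70% at the summit, and each tick on the right lies within its bar.

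Features of the annotation bound what the rule calls intronic. Peak intervals were a median of 295 bp wide, and 144 members (6.20%) had an interval that reached an annotated exon although the summit did not. An interval came within 500 bp of a TSS in 138 (5.95%), 110 summits lay in more than 1 protein-coding gene, 20 lay inside a noncoding gene, and 48 rows repeated the interval of another row. Of the introns of the longest transcripts, 99.9% began with GT or GC and ended with AG in the RefSeq sequence, so the annotation and the sequence were in register.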

How the data were processed

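Sox102F-GFP was mapped in 2 biological replicates of whole embryos. The authors deposited narrowPeak lists on dm6 for each replicate, for both pooled and as the optimal IDR list. Per the file headers, all were called against one control file. Aligner and caller were not given in the sources used here. For each peak the authors gave a signal value, deposited without a statement on scaling by depth. The deposited −log10 q-value was constant at 4.18 in the optimal list and was not used. The optimal list held the 7488 highest pooled peaks. The deposited replicate and pooled lists each ended at 30000 peaks.

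Summits were placed on Ensembl release 115 (BDGP6) and RefSeq's dm6 sequence, on 6 chromosome arms without Y. Exons of all annotated genes counted, transposable elements included. Eligible bases are all bases that meet the position rule, and a density is peaks per eligible Mb with an exact 95% Poisson interval. Shares have 95% Wilson intervals. Intervals over peaks treat them as independent, although 73.9% of members lay in hosts with 2 or more, so they can be too narrow. No test was run over peaks, since peaks and genes are not replicates. A member's replicate value is that of the highest replicate peak holding its summit.

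Genes named are the hosts of the 20 highest members, the 8 hosts with the most, the 3 shortest, those at the limits and the highest hosts of each list; further list members and values are named in places, chosen after their values were seen. The members and the 17 lists were chosen with earlier results of these data known. A total of 8 genes placed in a family by mistake were taken out afterwards, and 16 listed symbols had no match and were left out. Weighting windows by A and T share and limiting flanks to eligible centres were chosen after seeing the data. Alternatives were stronger peaks only (above the median signal), single replicates and other limits of the rule. The placement was tested on simulated data. The work ran in Python 3.11.15 with scipy 1.17.1, pandas 2.3.3, matplotlib 3.10.9 and numpy 2.4.6.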

Additional observations from a re-analysis of the deposited data

How the results depend on the processing

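Of 92 recomputed values, 61 stayed within the interval of the reported one (for the relative position and the A and T share, within the SD between the replicates' own values). The other 31 follow, most of them because the setting redefines which peaks or bases count. With 250 or 1000 bp around a TSS, members were 34.7% or 25.3% of peaks, their density 95.5 or 84.9 per Mb, and hosts with a promoter peak 24.01% or 50.2%. At 1000 bp first introns held 52.5% and the median position was 34.9%. With genes shorter than 30 or 100 kb, members were 20.9% or 42.3% of peaks, first introns held 61.1% or 46.2%, the median position was 31.6% or 33.6%, density 96.2 or 86.2 per Mb, and 11.2% or 15.1% of genes were hosts. In both cases first introns stayed above their share of eligible bases, 44.0% or 34.1%. Peaks above the median signal gave 44.5 per Mb, a median signal of 349, 8.44% of genes as hosts, 28.9% of hosts with a promoter peak and an A and T share of 70.5%. The lowest rank among transcripts gave 71.7% in first introns, exons of protein-coding genes only 85.7 per Mb, and an overlap of 50% of both peaks 73.8% in both replicates. Within 100 bp of the summit, 53.6% held ACAAT and 66.7% of bases were A or T.

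Leaving out replicate 2 or 3 gave 91.0 to 95.6% in both replicates and an A and T share of 68.8 to 69.1%. The peaks then came from the list of the other replicate, so the first value is only their overlap with the replicate left out. No median signal was set for these single-replicate settings, because the lists differ in scale. No paired analysis was possible because the replicates form 1 group. Depth is unknown, so peaks below the lists' limits could not be assessed. Without an untagged or second group, signal of the antibody or of open chromatin cannot be told apart from binding of the tagged protein.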

Other observations

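Summits in introns shorter than 250 bp numbered 7, named here after their values were seen. Beside CG11050 they were CG5854 (548 in the optimal list), CG43245 (295), CG31371 (219), CG8420 (207), pinta (155) and tup, a LIM homeobox gene (134). In CG5854, CG8420 and pinta a peak was found in replicate 3 only. The members farthest from any TSS after that of bab2 lay in stx (26388 bp, signal 323), robo2, an axon guidance receptor (25724 bp, signal 142), and grn, a GATA factor (25479 bp, signal 170.0). In stx the replicates gave 151 in replicate 2 and 171 in replicate 3, in robo2 67.5 and 79.8, and in grn 83.8 and 85.3.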
